A study of Mus musculus with 6 samples.

Results

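Adenylyl cyclases are the enzymes that make the second messenger cyclic AMP (cAMP), and protein kinase A (PKA) is the kinase through which much of its signal runs. Described here are 8 adenylyl cyclase genes, Adcy1, Adcy2, Adcy3, Adcy5, Adcy6, Adcy7, Adcy8 and Adcy9, and 2 PKA subunit genes, Prkaca and Prkar1a, which make up 10 of the 24015 gene symbols counted. The group was chosen from the read counts of these same libraries, because Adcy1 was lower in nerves that lack Rnf40 in Schwann cells, and its relatives and PKA were taken with it. The difference of these 10 genes between the genotypes is therefore given as a description, without p values, and where members past a limit are counted, nothing is concluded from the count.

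RNA was sequenced from mouse sciatic nerve at postnatal day 14, with 3 libraries per genotype, each prepared from a pool of 3 nerves. Control (ctrl) mice were Rnf40 fl/fl and cko mice carried Dhh::Cre in addition to Rnf40 fl/fl, so that the floxed alleles were common to both groups. The Dhh::Cre transgene acts in the Schwann cell lineage and there removes part of Rnf40, a subunit of the ubiquitin ligase for histone H2B, whereas the RNA came from whole nerve with all its cell types. All mice are labelled as a mixed 129SvJ/C57Bl/6J background, while the methods of the study name C3H in place of 129SvJ. Reads assigned to genes summed to 1317167, 1992622 and 2468765 in ctrl replicates 1, 2 and 3, and to 2184268, 1459387 and 2186710 in cko replicates 1, 2 and 3. Normalized counts below are reads scaled by TMM, a scaling that sets the bulk of genes equal between libraries, and 1 read was worth between 0.776 and 1.54 of them.

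Receptors that couple to the stimulatory G protein Gs switch membrane-bound adenylyl cyclases on, inhibitory G proteins of the Gi family restrain them, and the single cyclases differ in how calcium, calmodulin and G protein beta-gamma subunits act on them. Without cAMP the regulatory subunits of PKA hold its catalytic subunits inactive, and phosphodiesterases end the signal by degrading cAMP. In Schwann cells, cAMP raised through the adhesion receptor Gpr126 is known to be required for the onset of myelination.

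The deleted gene was examined first. Rnf40 had 127, 123 and 138 normalized counts in the ctrl libraries and 87.7, 87.9 and 91.5 in the cko libraries, so that every cko library lay below every ctrl library. Reads from the part of the gene outside the deletion, and from cells without Cre, add to these counts. The log2 fold change of cko over ctrl was -0.54 ± 0.14 (SE), with an adjusted p of 0.00242 in the quasi-likelihood test of edgeR, Benjamini-Hochberg adjusted over all genes tested. Scaling by total counts in place of TMM moved the median log2 fold change of all genes by 0.27, and Rnf40 then missed the threshold of the edgeR test (log2 fold change -0.27, adjusted p = 0.12, range over the alternatives 0.00235 to 0.12). Fold changes below are relative to the TMM scaling, and a sign that turned with total-count scaling is named beside the gene.

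Markers of the cell types of nerve were looked at because the tissue is a mixture. Sox10, a transcription factor of the whole Schwann cell lineage, stood at 931, 1025 and 1053 normalized counts in ctrl and 612, 558 and 576 in cko, so that every cko library was below ctrl. Means in cko were 33.2% of ctrl for Prx, 43.0% for Cdh19, 54.1% for S100b and 66.1% for Erbb3, further genes of Schwann cells, each lower in every cko library. Egr2, a transcription factor of myelinating Schwann cells, stood at 459.9, 501 and 425 in ctrl and 578, 512 and 685 in cko, where every cko library was above ctrl. From the RNA counts of whole nerve alone, fewer Schwann cells and less RNA per Schwann cell cannot be told apart. The part of either in the results below was not tested.

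Lists of markers were summed for the other cell types as TMM-normalized counts. They were not summed with total-count scaling, which moved the median log2 fold change of all genes up by 0.27. Sizes and overlaps of the sums therefore hold for the TMM scale only. Sums in cko were 71.5% of ctrl for the 5 endothelial genes (led by Cdh5), 74.5% for the 5 fibroblast genes (led by Col3a1) and 67.0% for the 5 macrophage genes (led by Csf1r), without overlap of the sums. Those of the 5 genes of pericytes and smooth muscle (68.4%, led by Acta2) and of the 5 adipocyte genes (69.4%, led by Fabp4) overlapped between the genotypes. The fibroblast genes were not alike, with Col3a1 at 71.4% of ctrl, Col1a1 at 77.3%, Pdgfra at 82.9% and Dcn at 83.3%. On the log2 scale Pdgfra (-0.27) and Dcn (-0.26) were lower by about the 0.27 that total-count scaling added to all genes. Their decrease thus depends on the scaling. Lum went the other way, at 108.9% of ctrl, with every cko library above ctrl. Of the adipocyte genes, Plin1 (39.7%) and Cfd (51.9%) were lower in every cko library, while Fabp4, Adipoq and Cidec overlapped. The genes listed as perineurial differed among themselves, with Itgb4 at 30.9% of ctrl, Slc2a1 at 62.8% and Cldn1 at 82.5% with overlapping libraries. Whether the reads of Itgb4 came from perineurial cells or from Schwann cells was not tested. The neuronal genes were scarce and did not move together. Stmn2 had 10, 18 and 26 reads in ctrl and 22, 4 and 14 in cko, Snap25 had 3, 6 and 8 in ctrl and 23, 13 and 23 in cko, and Rbfox3 had at most 1 read in any library. The 6 skeletal muscle genes, led by Myh4, summed to 6437, 4727 and 3509 in ctrl, but to 134, 327 and 4472 in cko replicates 1, 2 and 3. Thus cko replicate 3 carried muscle RNA at the level of ctrl and the other cko libraries did not. It also stood apart on the second principal component, at 20.4, with the remaining libraries between -10.5 and 0.29. Fold changes of the 10 genes, and of the called genes of cAMP signalling, are therefore also given without cko replicate 3. Leaving it out sets ctrl libraries with muscle RNA against cko libraries with little, so these values do not separate muscle RNA from genotype.

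**Figure D1:**
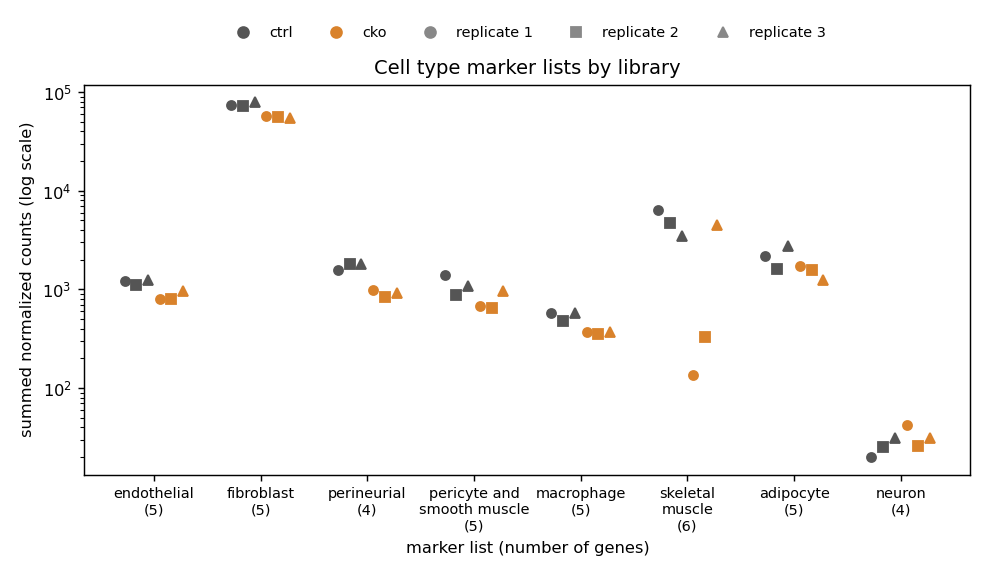
Summed normalized counts (log axis) of 8 marker lists in each of the 6 libraries; grey symbols are ctrl, orange symbols cko, and the symbol shape gives the replicate. The skeletal muscle sums of cko replicates 1 and 2 (134 and 327) lie below those of ctrl (3509 to 6437), and that of cko replicate 3 (4472) lies among them.

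A gene was called when its adjusted p was at most 0.05, its absolute log2 fold change at least 0.8 and its base mean, the average normalized count, at least 20. Of 11371 genes tested, 567 were called lower and 415 higher in cko, so that 57.7% of calls were lower; with total-count scaling it was 261 and 1008, or 20.6%. All 10 genes of the group passed the filter on low counts. By these limits 1 of the 10, Adcy1, was lower and 1, Adcy2, was higher, beside 4.99% and 3.65% of all genes tested. Past the adjusted p alone were 2 lower (Adcy1, Adcy8) and 2 higher (Adcy2, Adcy9), beside 16.2% and 15.4%. The libraries of the genotypes did not overlap for 4 lower genes (Adcy1, Adcy6, Adcy7, Adcy8) and 2 higher ones (Adcy2, Adcy9), beside 21.6% and 22.0%. Nothing is read from these counts, because the group was chosen on this contrast. The median log2 fold change was -0.18 over the 10 genes and -0.0026 over all genes tested.

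**Figure D2:**
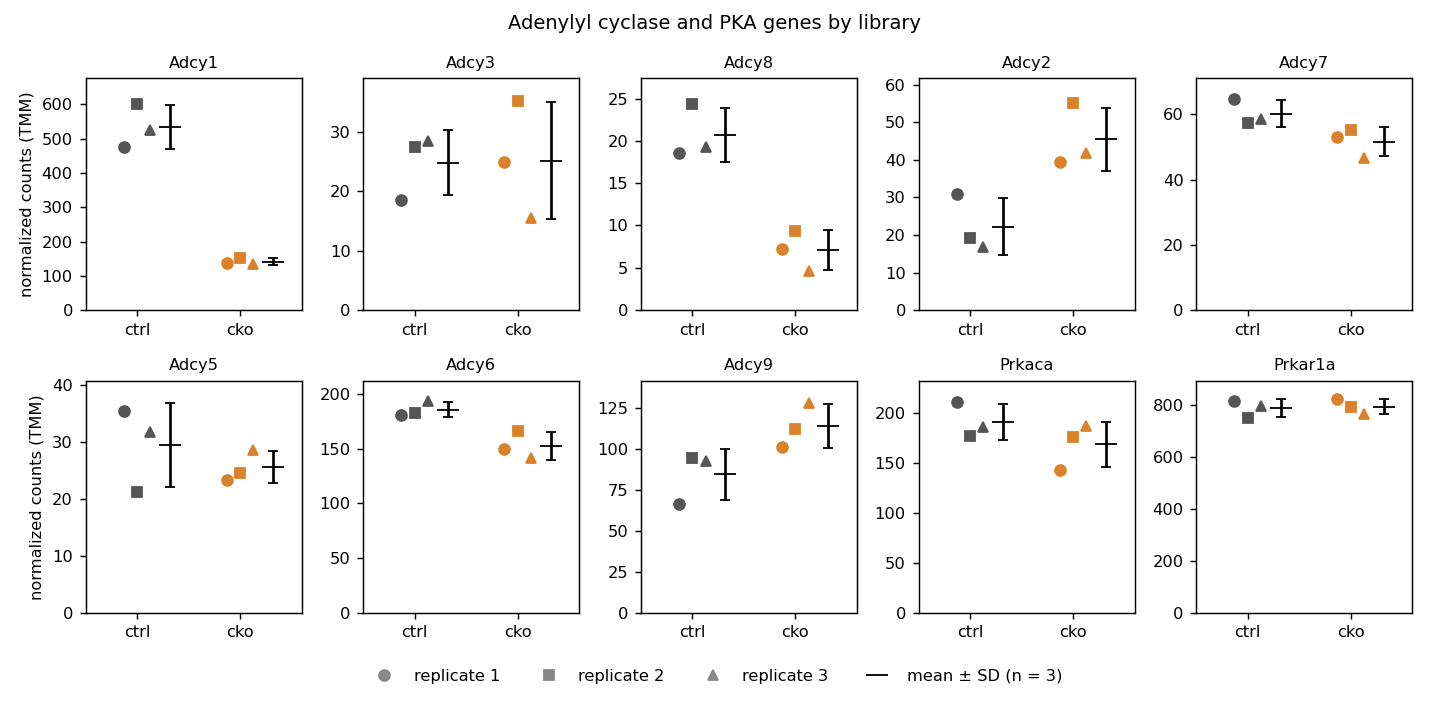
Normalized counts (linear axes from 0, a separate scale for each gene) of the 10 genes in the 3 ctrl (grey) and 3 cko (orange) libraries, with the mean ± SD at the right of each group. Adcy1 stands at 475 to 602 in ctrl and 133 to 152 in cko libraries, while Prkar1a stands at 749.8 to 816 and 764 to 822.

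Adcy1, Adcy3 and Adcy8 encode the cyclases that calcium and calmodulin stimulate. Adcy1, best known from neurons, lies on chromosome 11 at 6963492 to 7078509 (mm9, plus strand). It had 308, 568 and 627 reads in the ctrl libraries and 170, 130 and 172 in the cko libraries. As normalized counts these were 475, 602 and 525 in ctrl, against 137, 152 and 133 in cko. All 3 cko libraries were low, close to each other and far below the lowest ctrl library. The mean fell from 534 ± 63.6 (SD, n = 3) to 141 ± 10.1 (SD, n = 3), which is 26.4% of ctrl. The log2 fold change was -1.93 ± 0.11 (SE), and -1.89 ± 0.11 without cko replicate 3.

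The 250 bases before the RefSeq start of Adcy1 (GRCm38.p6, chr11:7063183-7063432, plus strand; a later build than the mm9 of the counts) are shown beside those of Adcy2 (chr13:68999542-68999791, minus strand), as the members with the lowest and the highest log2 fold change. Neither holds a motif that was searched for, and capitals would mark one.
Adcy1: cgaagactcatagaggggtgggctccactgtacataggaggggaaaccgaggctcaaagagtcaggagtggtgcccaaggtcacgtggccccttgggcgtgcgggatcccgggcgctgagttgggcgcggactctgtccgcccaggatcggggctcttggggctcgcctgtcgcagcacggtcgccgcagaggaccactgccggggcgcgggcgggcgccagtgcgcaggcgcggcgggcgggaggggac
Adcy2: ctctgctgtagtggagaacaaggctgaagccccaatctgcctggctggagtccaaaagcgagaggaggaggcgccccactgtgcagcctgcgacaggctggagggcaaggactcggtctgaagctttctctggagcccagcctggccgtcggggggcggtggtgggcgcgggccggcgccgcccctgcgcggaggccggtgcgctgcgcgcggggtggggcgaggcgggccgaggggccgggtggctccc

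Adcy8, another calcium-stimulated cyclase of neurons, was scarce, with 12, 23 and 23 reads in ctrl and 9, 8 and 6 in cko libraries. Its normalized counts were 18.5, 24.4 and 19.2 in ctrl and 7.24, 9.37 and 4.65 in cko, without overlap between the genotypes. This gave a log2 fold change of -1.59 ± 0.38 (SE), and -1.33 ± 0.42 without cko replicate 3. With a base mean of 13.9 the gene lay under the limit of 20 and was not called. At 6 to 23 reads per library this estimate is far less precise than that of Adcy1, as its SE shows. The gene lies on the minus strand of chromosome 15, at 64530604 to 64753858.

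Adcy3, known as the cyclase of olfactory neurons and primary cilia, had 12, 26 and 34 reads in ctrl and 31, 30 and 20 in cko. Its normalized counts overlapped, at 18.5 to 28.4 in ctrl and 15.5 to 35.1 in cko, and the highest and the lowest value were both cko libraries. The log2 fold change of -0.06 ± 0.29 (SE) turned to 0.21 ± 0.29 without cko replicate 3 and to 0.20 with total-count scaling. An exon of Adcy3 (chromosome 12, 4133103 to 4213525, plus strand) overlaps Cenpo on the other strand. The strand setting of the counting is not stated, so that it is not known how reads over this overlap were counted.

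Adcy2 and Adcy7 belong to the cyclases that G protein beta-gamma subunits stimulate together with Gs. Adcy2 (chromosome 13, 68758920 to 69138419, minus strand) had 20, 18 and 20 reads in ctrl and 49, 47 and 54 in cko. Its normalized counts were 30.9, 19.1 and 16.7 in ctrl and 39.4, 55.1 and 41.9 in cko. Every cko library was above every ctrl library, the nearest being ctrl replicate 1 and cko replicate 1. The mean rose from 22.2 ± 7.58 (SD, n = 3) to 45.5 ± 8.40 (SD, n = 3), or 2.05-fold. On the log2 scale the change was 1.08 ± 0.26 (SE), 1.14 ± 0.28 without cko replicate 3, and between 0.89 and 1.33 over all single libraries left out.

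Adcy7, a cyclase known from blood cells (chromosome 8, 90796302 to 90853861, plus strand), gave 64.8, 57.2 and 58.6 normalized counts in ctrl and 53.1, 55.1 and 46.5 in cko. The cko libraries lay just below ctrl, 55.1 in cko replicate 2 being next to 57.2 in ctrl replicate 2. Its log2 fold change of -0.22 ± 0.19 (SE) became -0.14 ± 0.20 without cko replicate 3 and turned to 0.05 with total-count scaling.

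Adcy5 and Adcy6 are the cyclases that calcium inhibits, both known from heart. Adcy6 (chromosome 15, 98420425 to 98438064, minus strand) had 117, 172 and 231 reads in ctrl and 186, 142 and 182 in cko. Scaled to normalized counts, these were 181, 182 and 193 in ctrl and 149.7, 166 and 141 in cko, and thus without overlap. The means were 185 ± 6.91 (SD, n = 3) and 152 ± 12.8 (SD, n = 3), and the log2 fold change was -0.29 ± 0.12 (SE), or -0.23 ± 0.12 without cko replicate 3. With total-count scaling it was -0.02. Adcy5 (chromosome 16, 35154963 to 35305823, plus strand) had 20 to 38 reads per library. Its normalized counts of 35.5, 21.2 and 31.8 in ctrl enclosed the cko values of 23.3, 24.6 and 28.7. For Adcy5 the log2 fold change was -0.18 ± 0.26 (SE) and -0.28 ± 0.30 without cko replicate 3, and its sign turned with total-count scaling (0.08). The Adcy5 value ranged from -0.38 to -0.07 over all single libraries left out.

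Adcy9, the membrane-bound cyclase least sensitive to forskolin, lies on chromosome 16 at 4287529 to 4420498 on the minus strand. It had 43, 89 and 111 reads in ctrl and 126, 96 and 165 in cko. The normalized counts were 66.4, 94.3 and 92.9 in ctrl and 101, 112 and 128 in cko, with ctrl replicate 1 the lowest and cko replicate 3 the highest. The genotypes did not overlap, and the log2 fold change was 0.41 ± 0.15 (SE). Without cko replicate 3 it was 0.31 ± 0.16, and over all single libraries left out it ranged from 0.28 to 0.50.

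Prkaca encodes the main catalytic subunit of PKA and Prkar1a the type I alpha regulatory subunit that holds it inactive. Prkar1a (chromosome 11, 109510719 to 109530970, plus strand) had 529, 708 and 952 reads in ctrl and 1021, 675 and 985 in cko libraries. Its normalized counts were 816, 749.8 and 796 in ctrl and 822, 791 and 764 in cko, 2 sets of values that overlapped almost in full. The log2 fold change was 0.01 ± 0.09 (SE) and 0.05 ± 0.09 without cko replicate 3; it was 0.28 with total-count scaling, which is the shift of all genes. Prkaca (chromosome 8, 86496877 to 86520344, plus strand) had 211, 177 and 186 normalized counts in ctrl and 143, 176 and 187 in cko, where cko replicate 1 was the lowest and the rest overlapped. Its log2 fold change was -0.17 ± 0.12 (SE), -0.26 ± 0.13 without cko replicate 3 and 0.09 with total-count scaling. Over all single libraries left out it ranged from -0.26 to -0.05.

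Levels were compared between genes only per length, as RPKM, in which reads are divided by library size and by the length of the merged exons. Prkar1a at 91.4 ± 3.96 RPKM (SD, n = 3) and Prkaca at 44.1 ± 4.14 (SD, n = 3) were above all cyclases in ctrl. Adcy1 followed at 22.7 ± 2.71 RPKM (SD, n = 3), then Adcy6 at 16.4 ± 0.61, Adcy9 at 8.67 ± 1.61 and Adcy7 at 5.07 ± 0.34, each without overlap with its neighbour in the order. Adcy2, Adcy5, Adcy8 and Adcy3, between 2.12 and 2.82 RPKM on average, overlapped with their neighbours and have no order at this depth. In cko the order below Prkar1a and Prkaca was changed. Adcy6 (13.5 ± 1.14 RPKM) and Adcy9 (11.7 ± 1.37) led and overlapped with each other, and Adcy1 (6.00 ± 0.43) and Adcy2 (5.76 ± 1.06) came next and also overlapped. Adcy7 stood at 4.35 ± 0.38 RPKM in cko, Adcy3 at 2.15 ± 0.84 and Adcy5 at 1.95 ± 0.21, the latter pair with overlap. Adcy8 at 0.75 ± 0.25 RPKM was the lowest of the group in cko.

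The summed level of the 10 cyclase genes of the mouse, which include Adcy4 and Adcy10, was 62.9, 69.9 and 68.1 RPKM in the ctrl libraries and 46.7, 52.8 and 48.5 in the cko libraries. The sum in cko was 73.6% of ctrl. Without Adcy1 the sum was 44.2 ± 1.52 RPKM (SD, n = 3) in ctrl and 43.3 ± 2.73 (SD, n = 3) in cko, a difference smaller than the spread between libraries. Adcy1 made up 32.2%, 36.7% and 32.8% of the summed cyclase level in ctrl and 12.5%, 12.3% and 11.7% in cko. The share of Adcy9 was 12.9% ± 1.79 (SD, n = 3) in ctrl and 23.8% ± 2.91 (SD, n = 3) in cko, and that of Adcy2 4.26% ± 1.70 and 11.6% ± 1.39. The share of Adcy6 went from 24.6% ± 1.28 to 27.4% ± 1.38 although its own level was lower in every cko library, as the share is of a sum that fell with Adcy1. With total-count scaling the sum in cko was 88.6% of ctrl and the sum without Adcy1 118%. These sums use the contrast on which the genes were chosen and carry no test.

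**Figure D3:**
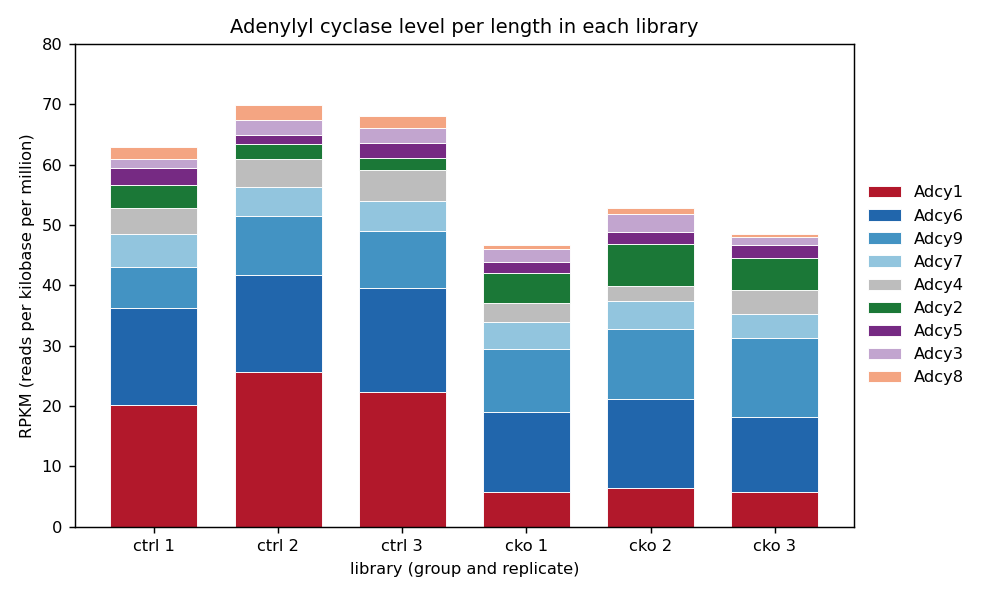
Level of each adenylyl cyclase gene in RPKM, stacked for each of the 6 libraries (Adcy10 had no reads and is not drawn). The Adcy1 segment makes up 32.2% to 36.7% of the bar in ctrl and 11.7% to 12.5% in cko libraries, and the part above it has about the same height in both (42.7 to 45.7 and 40.9 to 46.3 RPKM).

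Reads were also set against those of Sox10, which shifts all genes of a library alike. Per 100 Sox10 reads there were 51.1, 58.7 and 49.8 reads of Adcy1 in ctrl libraries and 22.4, 27.3 and 23.2 in cko libraries, so that Adcy1 was at 45.7% of ctrl. Adcy8 was at 59.3% of ctrl on this scale, again without overlap. For Adcy2 the values were 3.32, 1.86 and 1.59 in ctrl and 6.45, 9.87 and 7.28 in cko, and for Adcy9 the mean moved from 8.38 ± 1.10 (SD, n = 3) to 19.7 ± 2.86 (SD, n = 3). Sox10 itself was lower in cko, which raises every gene in cko on this scale. Adcy6 (142% of ctrl) and Adcy7 (147%), lower by TMM, were thus higher without overlap, as were Adcy5 (148%), Prkaca (152%) and Prkar1a (173%), whereas the libraries of Adcy3 overlapped. Which cells the reads of each cyclase came from was not tested.

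Genes with a pattern like that of Adcy1 over the 6 libraries were found by the root mean square difference of log2 CPM (counts scaled by library size), each gene centred on its own mean, over 9251 genes that reached the base mean limit of 20. Among the nearest were Ogn (difference 0.06 on the log2 scale), which encodes a matrix proteoglycan, L1cam (0.07), an adhesion molecule, Gjb1 (0.09), the connexin of Schwann cell gap junctions, and Prrg3 (0.09). Ogn had 2965, 5638 and 6336 reads in ctrl and 1808, 1220 and 1724 in cko, and Gjb1 124, 213 and 244 in ctrl and 76, 49 and 68 in cko. For comparison, Adcy8 differed from Adcy1 by 0.33 and the remaining members by 0.82 to 1.49, with a median of 0.97 over the genes compared.

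Promoter windows from RefSeq (GRCm38.p6; 250 bases before to 50 after a start) were present for 8 of the 10 genes, 17 windows in all, and not for Adcy6 and Adcy8. They were searched on both strands for TGACGTCA, the full cAMP response element (CRE) bound by CREB, and for GCGTGGGCG and GCGGGGGCG, motifs of the EGR factors to which the myelination factor Egr2 belongs. The CRE occurs in 1.79% of 32851 windows of the genome, and the EGR motifs in 0.612% and 2.91% (3.47% with either). No window of Adcy1, Adcy2, Adcy3, Adcy5, Adcy7 or Adcy9 held these letters. Prkar1a held the CRE in 2 overlapping windows, which share 1 match, and an EGR motif in another window, 37 bases after the start on the minus strand. Prkaca held GCGGGGGCG 13 bases before the start. The 250 bases before the start are shown for both PKA genes, as the members with a match, for Prkar1a at chr11:109650699-109650948 and for Prkaca at chr8:83972728-83972977, both plus strand, with the CRE or EGR motif in capitals.
Prkar1a: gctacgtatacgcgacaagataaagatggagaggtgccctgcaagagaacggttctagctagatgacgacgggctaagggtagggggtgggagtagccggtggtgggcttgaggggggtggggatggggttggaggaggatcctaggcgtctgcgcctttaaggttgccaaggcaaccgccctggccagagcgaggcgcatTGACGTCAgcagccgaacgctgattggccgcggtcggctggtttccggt
Prkaca: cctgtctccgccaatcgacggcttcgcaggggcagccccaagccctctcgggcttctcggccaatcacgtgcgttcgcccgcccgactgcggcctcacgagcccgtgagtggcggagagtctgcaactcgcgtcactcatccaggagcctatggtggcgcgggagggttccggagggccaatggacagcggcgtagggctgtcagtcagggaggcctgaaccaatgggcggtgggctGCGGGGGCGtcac
The log2 fold changes of these genes were 0.01 and -0.17 (above), and a match of letters is a description and not a shown binding site.

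Further genes of cAMP signalling were taken from lists of 73 genes that are not among the 10, of which 53 passed the filter on low counts. In the quasi-likelihood test of edgeR, Benjamini-Hochberg adjusted, 12 of the 53 passed the adjusted p as lower and 12 as higher in cko, beside 16.2% and 15.4% of all genes tested. By all limits 2 were called lower and 4 higher, beside 4.99% and 3.65%. The median log2 fold change of the 53 was -0.07. Of the 24 genes past the adjusted p, 12 passed it in every alternative and 12 missed it in at least 1. With total-count scaling no gene of the lists was called lower and 8 were called higher. Without cko replicate 3 the log2 fold changes of the called genes were 2.84 (Pde1c), 1.62 (Pde1a), 0.85 (Gnai1), 0.87 (Akap8), -1.30 (Gnaz) and -1.05 (Adcyap1r1), and Gnaz was then not called, at a base mean of 19.4. In the same setting Pkia (-0.8031) and Rapgef3 (-0.8085) gained a call as lower, so that 3 genes of the lists were called lower. Genes named below that were neither called nor the highest of their list were picked after their values were seen.

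**Figure D4:**
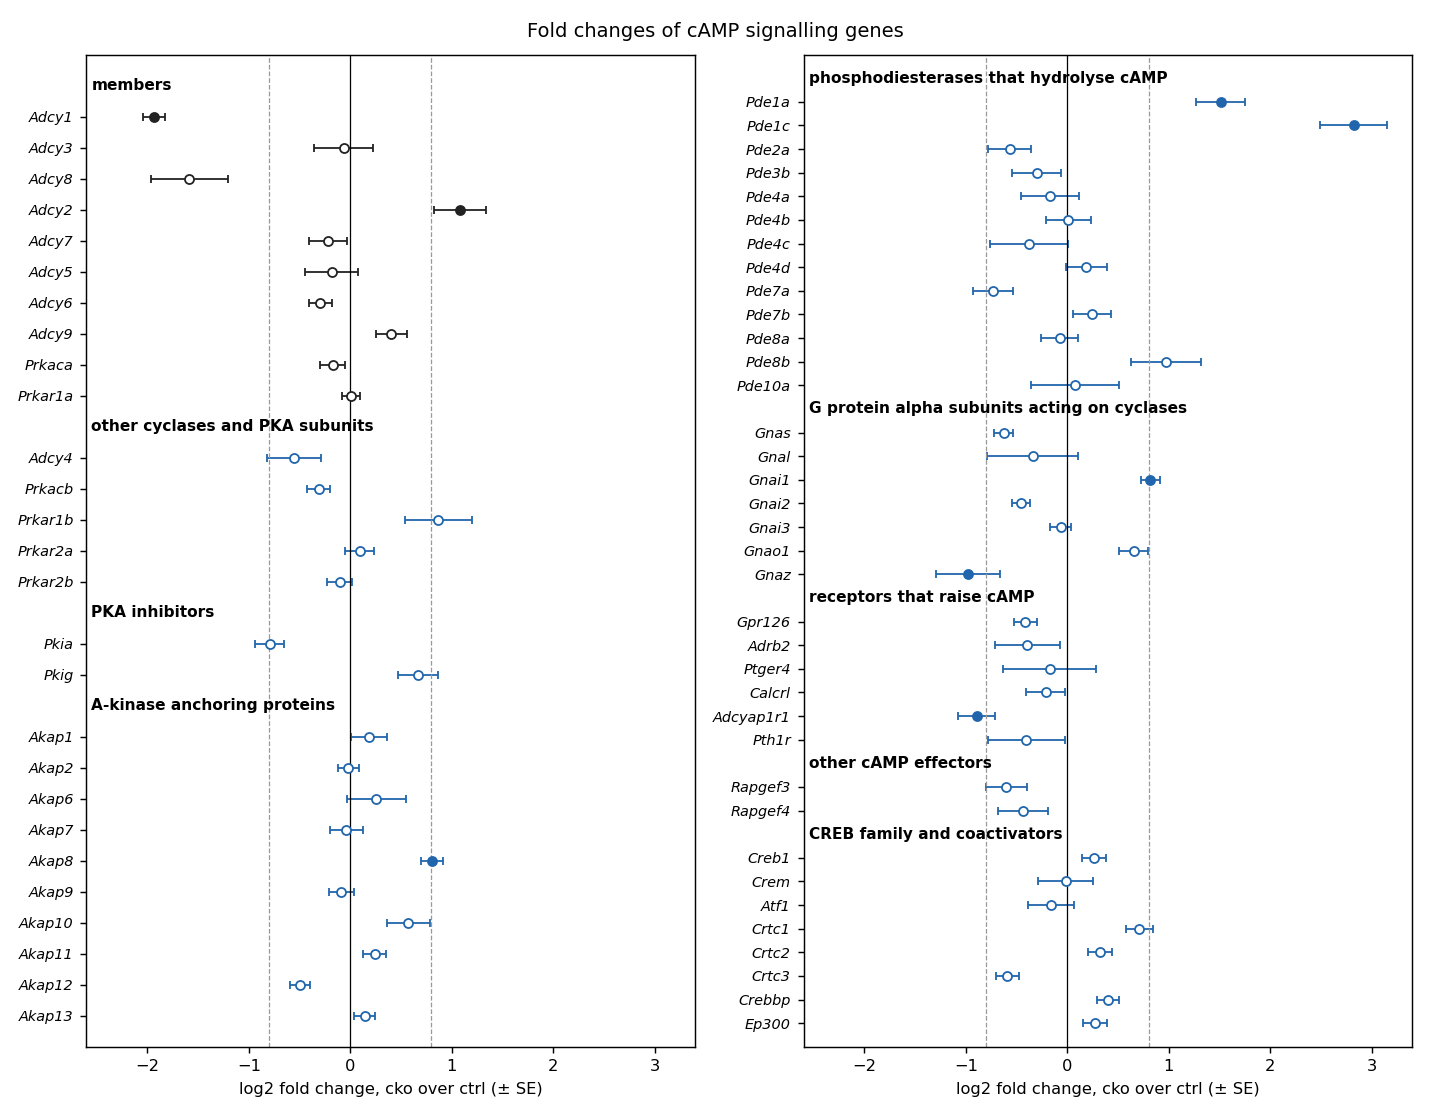
Log2 fold change of cko over ctrl (± SE, 3 libraries per group, TMM scaling) for the 10 genes described here (black) and the 53 tested genes of the cAMP lists (blue); filled symbols are called genes and dashed lines mark the limit of 0.8. Adcy1 lies at -1.93 and Adcy2 at 1.08, and the highest of the lists is the phosphodiesterase gene Pde1c at 2.82.

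Among the G protein alpha subunits that act on cyclases, the inhibitory subunit Gnai1 had 457, 537 and 534 normalized counts in ctrl and 930.3, 904 and 868 in cko. Every cko library was above ctrl, with a log2 fold change of 0.82 ± 0.09 (SE, adjusted p = 6.44e-09 in the edgeR test). Gnaz, another inhibitory subunit, had 20.1, 30.7 and 29.3 normalized counts in ctrl and 10.5, 11.7 and 18.6 in cko, a log2 fold change of -0.98 ± 0.31 (SE, adjusted p = 0.0152 in the same edgeR test). Per length of merged exons the highest subunit in ctrl was Gnai2 at 222 ± 12.6 RPKM (SD, n = 3), while by the longest transcript Gnas (224 RPKM) and Gnai2 (223 RPKM) were alike. Gnai2 had a log2 fold change of -0.46 ± 0.09 (SE, adjusted p = 0.000124 in the edgeR test, lower in 3 of 3 cko libraries), and missed the threshold with total-count scaling (0.0959, range over the alternatives 2.07e-05 to 0.0959). Gnas, the stimulatory subunit that activates all the membrane-bound cyclases, had 1750.2, 1549 and 1677 normalized counts in ctrl and 962, 1031 and 1222 in cko, a log2 fold change of -0.63 ± 0.09 (SE, adjusted p = 8.26e-07 in the edgeR test). Exons of antisense genes overlap those of Gnas. Gnao1 (0.65 ± 0.14, SE, adjusted p = 0.000485 in the edgeR test, higher in 3 of 3 cko libraries) also has an overlapping antisense neighbour. How reads over these overlaps were counted is not known. With a base mean of 20.1, Gnaz was next to the limit of 20, and it missed the edgeR threshold without ctrl replicate 2 (0.0787), ctrl replicate 3 (0.079) or cko replicate 1 (adjusted p 0.0878), over a range of 0.00424 to 0.0878 in all alternatives, total-count scaling and DESeq2 included. Gnai1 fell under the limit on fold change without ctrl replicate 1 (0.75).

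Of 16 receptors that raise cAMP, 6 were abundant enough to be tested. Adcyap1r1, the receptor for the neuropeptide PACAP, was called lower, with 102, 72.0 and 95.4 normalized counts in ctrl and 47.5, 36.3 and 57.4 in cko. Its log2 fold change was -0.89 ± 0.19 (SE, adjusted p = 0.000245 in the edgeR test), and it was under the limit on fold change without cko replicate 2 (-0.76) and with total-count scaling (-0.63). Gpr126 was the receptor with the highest level in ctrl, at 17.8 ± 1.11 RPKM (SD, n = 3). Its normalized counts were 205, 232 and 215 in ctrl and 158, 186 and 149.7 in cko, a log2 fold change of -0.42 ± 0.11 (SE, adjusted p = 0.00477 in the same edgeR test). With total-count scaling Gpr126 missed the threshold of the edgeR test (adjusted p = 0.328, range over the alternatives 0.00178 to 0.328).

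Phosphodiesterases that hydrolyse cAMP showed the highest fold changes of the lists. Pde1c, which calcium and calmodulin activate, had 3, 9 and 5 reads in ctrl and 62, 32 and 56 in cko libraries. In normalized counts it went from 6.12 ± 2.97 (SD, n = 3) to 43.6 ± 6.21 (SD, n = 3), a log2 fold change of 2.82 ± 0.33 (SE, adjusted p = 1.22e-08 in the edgeR test). Pde1a, of the same calcium-activated family, had 15, 16 and 22 reads in ctrl and 73, 50 and 61 in cko, a log2 fold change of 1.51 ± 0.24 (SE, adjusted p = 3.99e-06 in the same test). Both were above ctrl in every cko library, and Pde1a was called under every alternative, whereas Pde1c missed the minimum base mean without cko replicate 1 (19.1). With at most 9 reads in a ctrl library, Pde1c was not tested where at least 10 counts in every library were required, and its fold change rests on few ctrl reads. Pde1b, the other gene of the family, had 5 to 8 reads per library and was not tested. Among the 13 phosphodiesterases tested, Pde8b also passed the adjusted p as higher, and Pde7a and Pde2a as lower, but all 3 missed it in some alternatives, with ranges of adjusted p of 0.00423 to 0.229, 0.00286 to 0.0557 and 0.00727 to 0.279 in the edgeR test and its alternatives. Among those with a matched gene model, which Pde4d lacks, the highest mean in ctrl was that of Pde8a, at 8.06 ± 1.77 RPKM (SD, n = 3), in libraries that overlapped with those of Pde2a. Its counts overlapped between the genotypes, with a log2 fold change of -0.08 ± 0.19 (SE, adjusted p = 0.793 in the edgeR test; 0.19 with total-count scaling).

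**Figure D5:**
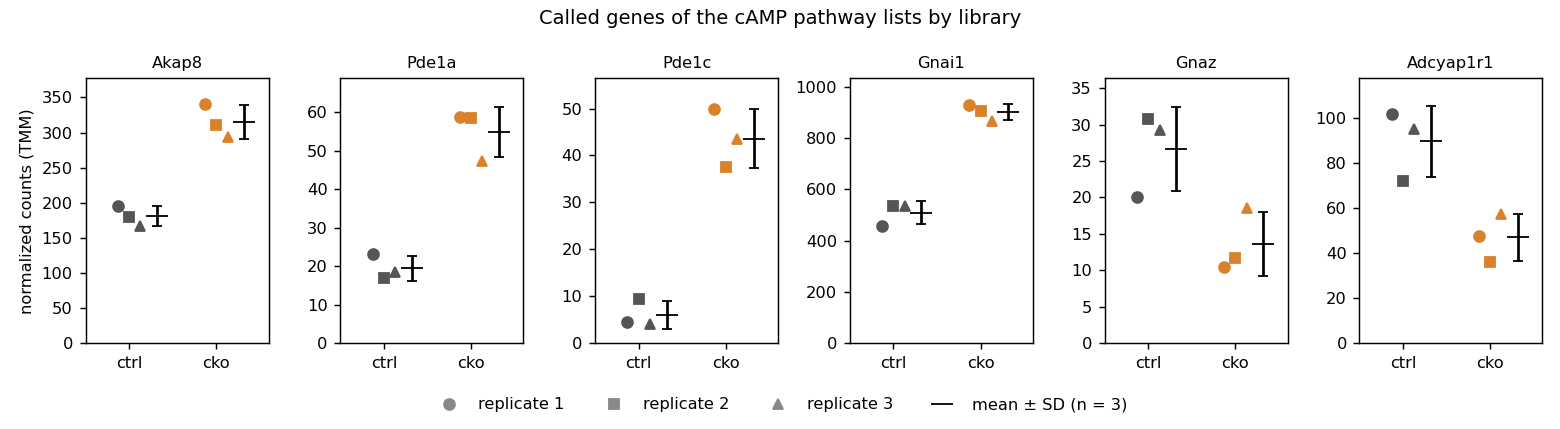
Normalized counts (linear axes from 0, a separate scale for each gene) of the 6 called genes of the cAMP lists in the 3 ctrl (grey) and 3 cko (orange) libraries, with the mean ± SD. Pde1c has a mean of 6.12 in ctrl and 43.6 in cko, and Gnai1 of 509 and 901.

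Among the cyclases and PKA subunits outside the group, Adcy4 had 14 to 40 reads per library and a log2 fold change of -0.55 ± 0.27 (SE, adjusted p = 0.112 in the edgeR test), and the soluble cyclase Adcy10 had no reads in any library. Prkar2b, a type II regulatory subunit, had the highest mean of this list in ctrl, at 24.1 ± 1.49 RPKM (SD, n = 3), but its libraries overlapped with those of Prkacb (20.9 ± 2.08 RPKM), and by the longest transcript the order was reversed. Its log2 fold change was -0.11 ± 0.12 (SE, adjusted p = 0.550 in the same edgeR test; 0.16 with total-count scaling). Past the adjusted p were Prkacb, the second catalytic subunit, as lower (-0.31 ± 0.11, SE) and Prkar1b, a regulatory subunit, as higher (0.87 ± 0.33, SE, from 8 to 37 reads per library). Both missed it under several alternatives, with ranges of 0.025 to 0.792 for Prkacb and 0.00619 to 0.207 for Prkar1b.

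Of the PKA inhibitors, which block the free catalytic subunit, Pkia had 147, 138 and 127 normalized counts in ctrl and 68.4, 89.0 and 79.9 in cko. Its log2 fold change was -0.80 ± 0.14 (SE, adjusted p = 4.13e-05 in the edgeR test), just short of the limit of 0.8. Pkig moved the other way, from 35.5, 37.1 and 43.5 to 61.2, 65.6 and 60.5 normalized counts (log2 fold change 0.66 ± 0.19, SE, adjusted p = 0.00783 in the same edgeR test). Both genes showed their direction in all libraries and passed the adjusted p in every alternative.

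Of 10 A-kinase anchoring proteins tested, which tether PKA inside the cell, Akap8 was called higher. It had 196, 180.0 and 167 normalized counts in ctrl and 340.4, 310.4 and 293 in cko, a log2 fold change of 0.81 ± 0.11 (SE, adjusted p = 1.69e-07 in the edgeR test). The fold change was under the limit of 0.8 without ctrl replicate 3 (0.75), without cko replicate 1 (0.76), with the fold-change prior of DESeq2 (0.79) and with the replicate number as a block (0.797). Akap12, the highest of the list in ctrl at 66.3 ± 7.24 RPKM (SD, n = 3), was lower in every cko library (log2 fold change -0.49 ± 0.10, SE, adjusted p = 0.000142 in the same edgeR test). With total-count scaling Akap12 missed the threshold of the edgeR test (adjusted p = 0.0727, range over the alternatives 1.93e-06 to 0.0727). Akap10 also passed the adjusted p as higher, at 0.57 ± 0.21 (SE), but missed it in 6 of 13 alternatives (range 0.00148 to 0.218).

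Effectors of cAMP other than PKA include the exchange factor Rapgef3 (Epac1), which had 39, 52 and 76 reads in ctrl and 42, 29 and 63 in cko, and a log2 fold change of -0.60 ± 0.20 (SE, adjusted p = 0.0205 in the edgeR test). Every cko library was below ctrl after scaling. It missed the threshold of the edgeR test without ctrl replicate 3 (adjusted p = 0.105), cko replicate 1 (0.114) or cko replicate 2 (0.0724), over a range of 0.00368 to 0.199, and exons of antisense genes overlap it. The CREB coactivators Crtc1 and Crtc3 moved in opposite directions, with log2 fold changes of 0.71 ± 0.13 (SE, adjusted p = 6.85e-05 in the edgeR test) and -0.59 ± 0.11 (SE, adjusted p = 8.70e-05), both in 3 of 3 cko libraries. Crtc2, the highest of this list in ctrl at 19.4 ± 1.72 RPKM (SD, n = 3), stood at 0.32 ± 0.12 (SE, adjusted p = 0.0347 in the same edgeR test) and the acetyltransferase gene Crebbp at 0.40 ± 0.11 (SE, adjusted p = 0.00453). Of these, Crtc2 missed the threshold without ctrl replicates 2 or 3 or cko replicates 1 or 3, over a range of adjusted p of 0.000162 to 0.177 in the edgeR test and its alternatives. Creb1, which encodes CREB itself, had a log2 fold change of 0.26 ± 0.12 (SE) and an adjusted p of 0.0946 in the edgeR test.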

How the data were processed

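RNA-Seq of 6 sciatic nerve libraries was analysed, 3 per genotype, labelled as biological replicates. The authors aligned reads to mm9 with TopHat 2.1.1, counted uniquely mapped reads per gene with HTSeq-count 0.9.1 and deposited raw counts; the submitters' processing notes also name Bowtie2 2.1.0 and mm10. Annotation and strand setting of the counting are not stated, and labels and methods name different library kits. The tables hold 0 rows without a gene. Replicates differed by more than sampling noise (chi-square per degree of freedom 1.78 to 5.21).

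From these counts, edgeR 4.0.16 in R 4.3.3 tested the 11371 genes that filterByExpr kept, with TMM factors, a robust quasi-likelihood model of genotype alone, and p adjusted after Benjamini and Hochberg. Normalized counts are reads brought to a common library size by the TMM factors, and RPKM uses the same factors. Log2 CPM used a prior count of 2. Gene positions and lengths are those of GENCODE vM1 (NCBIM37, the same assembly as mm9, first base 1), which matched 20763 of the 24015 symbols once; promoter sequences come from RefSeq. Alternatives were RLE or total-count scaling, DESeq2 1.42.0 with and without its fold-change prior, no filter or at least 10 counts in every library, a replicate block, no minimum fold change or base mean, and each library left out. The fit was tested on simulated data.

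The genes described and all gene lists were chosen with earlier results of these data known. Named were the 10 genes, Rnf40, in each pathway list the called genes and the gene highest per length in ctrl, genes among those most like Adcy1, and the most counted gene of each marker list shown. Further genes were named after their values were seen.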

Additional observations from a re-analysis of the deposited data

How the results depend on the processing

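Over all alternatives the log2 fold change ranged from -2.01 to -1.66 for Adcy1 and from 0.89 to 1.35 for Adcy2, on the contrast from which the genes were chosen. Total-count scaling, which shifts all genes by 0.27, gave 261 genes called lower and 1008 higher, 880 and 3766 past the adjusted p alone, and 0 and 8 called in the pathway lists. With it the log2 fold change was -1.66 for Adcy1, 0.0474 for Adcy7, -0.0244 for Adcy6, 0.68 for Adcy9, 0.0948 for Prkaca, 0.28 for Prkar1a and -0.27 for Rnf40 (adjusted p = 0.12, range over the alternatives 0.00235 to 0.12), and the signs of Prkar2b (0.16) and Pde8a (0.19) turned. No minimum fold change raised the calls to 1733 lower and 1543 higher, with 2 members higher and 12 and 10 pathway genes. No minimum base mean gave 628 genes higher and 2 members lower, the second being Adcy8. DESeq2 called 1 pathway gene lower with or without its prior, and with it shrank Adcy8 to -1.18. In alternatives chosen after seeing the data, the summed cyclase level in cko was 88.6% of ctrl with total-count scaling and 118% without Adcy1, and Adcy1 made up 53.7% of cyclase reads in ctrl and 24.2% in cko when reads were not divided by length. The causes were not tested.

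Leaving out single libraries gave 548 to 697 genes called lower, 371 to 469 higher, and 1 to 3 and 3 to 4 pathway genes. The log2 fold change then ranged from -2.01 to -1.84 for Adcy1, -0.58 to -0.48 for Rnf40, -0.33 to 0.21 for Adcy3 and -0.17 to 0.11 for Pde8a, whose sign turned without ctrl replicate 2. Of the 12 pathway genes that missed the adjusted p in at least 1 alternative, Akap12, Gnai2, Gpr126 and Pde7a missed it with total-count scaling alone. Prkacb, Prkar1b, Akap10, Pde2a, Pde8b, Rapgef3, Crtc2 and Gnaz missed it with DESeq2 and without 1 or another single library, at adjusted p of up to 0.229; of these, Prkacb (0.792), Pde2a (0.279), Rapgef3 (0.199) and Gnaz (0.0719) also missed it with total-count scaling.

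Same-numbered libraries did not deviate together (correlations -0.095, -0.015 and -0.062 for replicates 1, 2 and 3), and none correlated best with its own number. With the replicate number as a block, 566 genes were called lower and 408 higher, and 1 member each way; Adcy1 was at -1.92, Akap8 at 0.797, under the limit of 0.8, and Prkar1b had an adjusted p of 0.0501 (range over the alternatives 0.00619 to 0.207). Depth limits Adcy3, Adcy8, Adcy2 and Adcy5, which had at most 54 reads in any library.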
